A study of Mus musculus with 6 samples.

Results

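The Ing proteins and the MYST acetyltransferase complexes that several of them serve were followed in haematopoietic stem cells (HSCs) of Chrm1-/- and WT mice. The 10 genes were selected on function and on 1 measured value; they are Ing1, Ing2, Ing3, Ing4, Ing5, Kat6a, Kat6b, Kat7, Brpf1 and Meaf6. The family was chosen by the Ing5 difference, since Ing5 read lower in the Chrm1-/- cells, and that difference is given here without a test. All 10 were found among the 22180 genes that the platform annotation pairs with a single symbol, and all 10 were bright enough to be tested. The study profiled HSCs from unchallenged bone marrow, sorted for Sca1 and cKit and against lineage markers and Flt3, on Affymetrix mouse gene ST arrays. Cells of Chrm1-/- mice, which lack the muscarinic acetylcholine receptor type 1, gave 3 arrays, and cells of WT C57Bl/6 mice gave 3 arrays. The labels give C57Bl/6 as the strain of the Chrm1-/- mice as well. They give no age, no sex and no number of mice per array. The 1 comparison of the design asks how stem cells from mice without this receptor differ from WT at steady state.

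MYST enzymes are lysine acetyltransferases that work as subunits of larger complexes. Kat6a (MOZ), Kat6b (MORF) and Kat7 (HBO1) sit on a scaffold protein such as Brpf1, together with the small subunit Meaf6 and an Ing protein. Ing proteins carry a PHD finger that binds histone H3 trimethylated at lysine 4 and so bring their complex to active promoters. Ing5 serves the Kat6a, Kat6b and Kat7 complexes and Ing4 the Kat7 complex, while Ing3 belongs to the NuA4/TIP60 acetyltransferase complex and Ing1 and Ing2 belong to Sin3 complexes, which remove acetyl groups. In blood, Kat6a, Kat7 and Brpf1 are known from mouse knockouts to be needed for HSCs, and KAT6A is a fusion partner in human acute myeloid leukaemia.

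Values are log2 signals, 1 per gene and array, and a difference of 1 is a doubling. Array medians ran from 6.49 to 6.57, so the arrays shared a scale. The number of arrays limits the precision, with a median standard error of 0.17 for a difference between the genotypes. Chrm1 itself read 8.16, 7.52 and 7.58 on the Chrm1-/- arrays and 7.45, 7.44 and 7.67 on the WT arrays. Neither the deleted part of Chrm1 nor the part under its probes is stated by the labels, and these levels are therefore no check of the genotypes. Of 8 stem cell markers fixed with the lists, all 8 were bright enough to be tested, among them Kit, the stem cell factor receptor, at 10.88 ± 0.10 in Chrm1-/- and 10.90 ± 0.05 in WT (SD, n = 3 each).

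Upstream sequence of the Ing5 gene and of its complex partners Ing4 and Meaf6 is shown because these are the members whose upstream bases hold CCGGAAG, the core bound by factors of the ETS family, which are widely used in blood cells. The sequences come from RefSeq on GRCm38.p6, and the capitals mark the motif on either strand. Each runs 5′ to 3′ and ends at the last base before the annotated gene. The Ing5 stretch is chr1:93803715-93803925 (plus strand), that of Ing4 is chr6:125039598-125039847 (plus strand) and that of Meaf6 is chr4:125084884-125085112 (plus strand).
Ing5: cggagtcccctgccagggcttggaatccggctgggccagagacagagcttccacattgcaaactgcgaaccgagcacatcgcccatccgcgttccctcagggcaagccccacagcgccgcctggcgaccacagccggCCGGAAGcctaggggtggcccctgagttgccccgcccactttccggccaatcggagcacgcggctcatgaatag
Ing4: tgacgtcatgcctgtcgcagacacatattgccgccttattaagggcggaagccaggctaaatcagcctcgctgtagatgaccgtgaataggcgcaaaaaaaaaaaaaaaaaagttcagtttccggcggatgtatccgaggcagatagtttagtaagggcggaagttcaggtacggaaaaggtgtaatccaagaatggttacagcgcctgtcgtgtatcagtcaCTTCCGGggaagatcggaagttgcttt
Meaf6: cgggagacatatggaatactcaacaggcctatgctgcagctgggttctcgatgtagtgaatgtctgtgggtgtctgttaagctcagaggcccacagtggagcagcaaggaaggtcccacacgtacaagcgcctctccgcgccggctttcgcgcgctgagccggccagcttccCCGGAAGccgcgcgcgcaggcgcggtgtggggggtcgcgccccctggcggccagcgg
The motif begins 113 bases before the listed transcript start in Ing5, 27 bases before it in Ing4 and 78 bases before it in Meaf6. In Ing5 and Meaf6 the listed start lies inside the annotated gene. Their printed stretches, of 211 and 229 bases, therefore stop short of it, and the motif lies nearer to their printed end. In the 250 bases before the start, CCGGAAG or its complement CTTCCGG occurred in 3 of the 9 members with an entry and in 6.91% of 32851 promoters of that length. CCAAT or ATTGG occurred in 5 of the 9, among them Ing5 and Kat7, and in 33.9% of all promoters. TATAAA or TTTATA occurred in 1 of the 9, Ing1, and in 12.4% of all promoters. A member with several listed starts was counted where any of them held the motif. The share over all promoters counts each listed start by itself, so the counts are not made alike. The motifs were chosen after the sequences were seen, and a match is a description of the letters only. The 250-base window of Ing5 was 70% G and C with 26 CpG pairs, against medians of 52.4% and 6 over all promoters, while that of Kat7 had 50.8% and 8.

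Ing5, the histone reader that chose the group, read 7.12, 7.17 and 7.65 on the Chrm1-/- arrays and 9.56, 8.66 and 8.23 on the WT arrays. Every Chrm1-/- array lay below every WT array, and the gap between the highest Chrm1-/- array and the lowest WT array was 0.58. The means were 7.31 ± 0.29 in Chrm1-/- and 8.82 ± 0.68 in WT (SD, n = 3 each), a log2 difference of -1.50 ± 0.36 (SE), or 2.83-fold lower. The WT arrays were spread widely. Their highest and lowest values lay 1.33 apart, while the Chrm1-/- arrays lay within 0.53 of each other. The spread within a genotype was larger for Ing5 than for 90.1% of the genes tested. WT replicate 1 carried the highest value, and the difference was -1.13 without it and -1.80 without WT replicate 3, the lowest WT array. In RNA from a sorted population, fewer cells that express a gene and less RNA per cell cannot be told apart. A single row of the platform carries Ing5, so no further row of the array bears on its level.

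**Figure D1:**
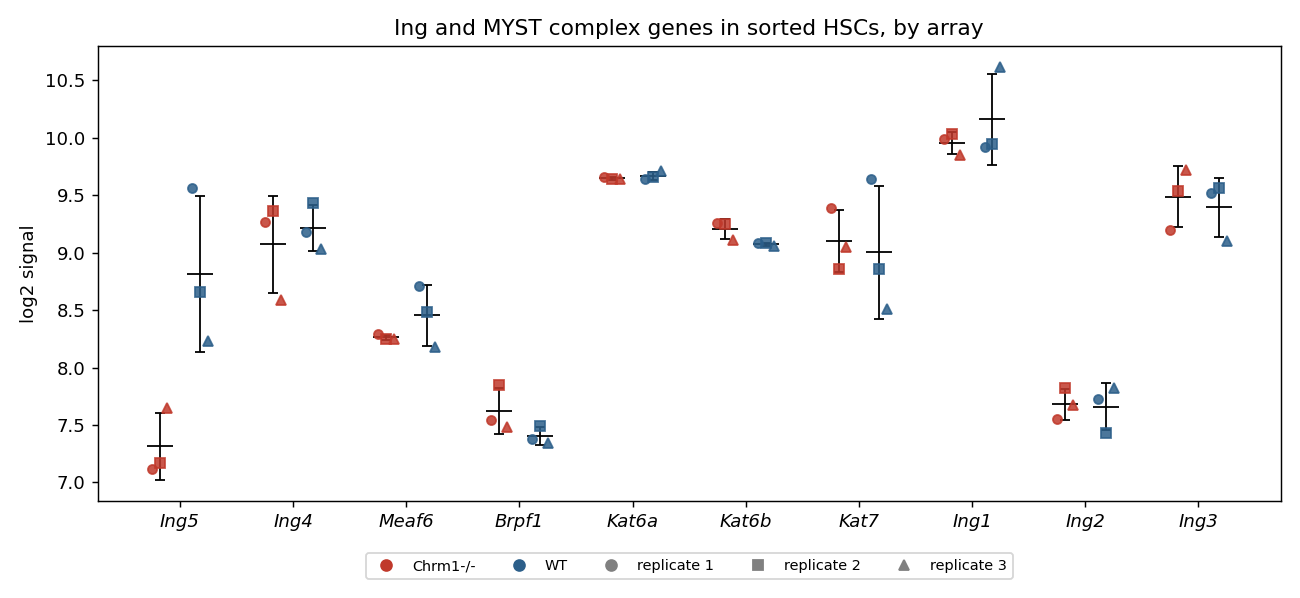
Log2 signal (vertical axis) of each of the 10 genes on each array, with Chrm1-/- arrays in red left of WT arrays in blue, symbols for the replicate, and black bars for the mean and SD (n = 3). Ing5 is the gene with a wide gap between the genotypes, at 7.12 to 7.65 in Chrm1-/- and 8.23 to 9.56 in WT; heights of different genes are not comparable because they come from different probes.

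Of the catalytic subunits that Ing5 serves, Kat6a and Kat6b were nearly level between the arrays, while Kat7 varied widely among the WT arrays. Kat6a read 9.66, 9.64 and 9.64 on the Chrm1-/- arrays and 9.64, 9.66 and 9.71 on the WT arrays. All 6 values lay within 0.07, a narrower range than that of 99.4% of the genes tested, and its 95% interval ran from -0.25 to 0.21 around a difference of -0.02. Kat6b, the close relative of Kat6a, read 9.26, 9.25 and 9.11 on the Chrm1-/- arrays and 9.08, 9.08 and 9.06 on the WT arrays. The Kat6b groups did not overlap, with Chrm1-/- the higher, but the difference was small, 0.13 ± 0.10 (SE), with an interval from -0.11 to 0.38. Kat7, the catalytic subunit shared with Ing4, read 9.39, 8.86 and 9.05 on the Chrm1-/- arrays and 9.64, 8.86 and 8.51 on the WT arrays. The WT arrays of Kat7 spanned 1.13, the Chrm1-/- arrays lay inside that span, and its interval ran from -0.66 to 0.85 around a difference of 0.10. The Kat7 difference leaned on single arrays, at -0.15 without WT replicate 3, -0.05 without Chrm1-/- replicate 1, 0.22 without Chrm1-/- replicate 2 and 0.42 without WT replicate 1.

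**Figure D2:**
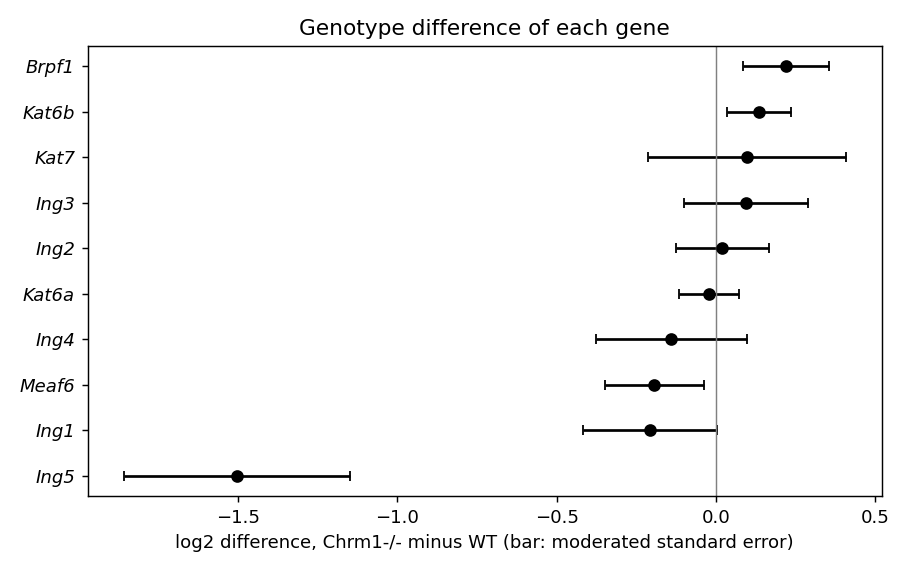
Log2 difference of each gene, Chrm1-/- minus WT (horizontal axis), with the moderated standard error from limma as the bar (3 arrays per genotype). Ing5 lies at -1.50, and the other 9 genes lie between -0.21 and 0.22.

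The scaffold and the accessory subunits had small differences, and the groups overlapped for each. Brpf1, the scaffold that activates Kat6a and Kat6b, read 7.54, 7.85 and 7.48 on the Chrm1-/- arrays and 7.38, 7.49 and 7.34 on the WT arrays. The groups overlapped by 0.01, between Chrm1-/- replicate 3 and WT replicate 2. The Brpf1 difference was 0.22 ± 0.14 (SE), with an interval from -0.11 to 0.55, and the difference was 0.11 without Chrm1-/- replicate 2. Meaf6, the small subunit of MYST complexes, read 8.29, 8.25 and 8.25 on the Chrm1-/- arrays and 8.71, 8.48 and 8.18 on the WT arrays. The Chrm1-/- arrays were nearly level, and WT replicate 3 lay below them while the other WT arrays lay above. The Meaf6 difference of -0.19 ± 0.15 (SE) was -0.33 without WT replicate 3, where it had an unadjusted p under 0.05 in limma, and -0.07 without WT replicate 1.

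Ing5, Kat7 and Meaf6 had the same order of the WT arrays, with the highest value on replicate 1 and the lowest on replicate 3. That order held for 3 of the 10 members and for 18.1% of all genes tested. The count includes Ing5, through which the family was chosen, and nothing is read from it. On the Chrm1-/- arrays the same 3 genes did not share an order, as Ing5 was highest on replicate 3 while Kat7 and Meaf6 were highest on replicate 1.

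Ing4, the nearest relative of Ing5 in the family, read 9.27, 9.36 and 8.59 on the Chrm1-/- arrays and 9.18, 9.43 and 9.03 on the WT arrays. The lower mean in Chrm1-/-, a difference of -0.14 ± 0.24 (SE), came with a single low array, and without Chrm1-/- replicate 3 the difference was 0.10; it was -0.28 without Chrm1-/- replicate 2. A further row shared by Acrbp and Ing4 was left out of the comparison because its signal cannot be given to either gene. It read 7.05, 6.76 and 7.19 on the Chrm1-/- arrays and 7.18, 7.96 and 6.69 on the WT arrays, again with overlapping groups.

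The Ing genes of other complexes gave overlapping groups too. Ing1, a subunit of Sin3 deacetylase complexes, read 9.99, 10.03 and 9.85 on the Chrm1-/- arrays and 9.92, 9.95 and 10.62 on the WT arrays. WT replicate 3 stood above the other 5 arrays, and the Ing1 difference of -0.21 ± 0.21 (SE) was 0.02 without it and -0.33 without WT replicate 1. Ing2, its Sin3 complex relative, read 7.55, 7.82 and 7.67 on the Chrm1-/- arrays and 7.73, 7.43 and 7.82 on the WT arrays. The Ing2 difference was 0.02, with an interval from -0.34 to 0.38, and ran from -0.10 without WT replicate 2 to 0.10 without WT replicate 3. Ing3, the NuA4/TIP60 subunit, read 9.20, 9.54 and 9.72 on the Chrm1-/- arrays and 9.52, 9.56 and 9.10 on the WT arrays. The Ing3 difference was 0.09, with an interval from -0.38 to 0.56, and ran from -0.05 without WT replicate 3 to 0.24 without Chrm1-/- replicate 1. Over the 9 genes other than Ing5 the lowest bound of an interval was -0.72, for Ing1.

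As a group, 5 of the 10 genes had a higher and 5 a lower mean in Chrm1-/-, and without Ing5 the median difference was 0.02 over the 9 others. Over all 11094 genes tested, 5545 were higher and 5463 lower, and the median difference was 0. By limma with Benjamini-Hochberg adjustment, 0 of the genes tested passed 0.05, which is 0% of them, with 0.926 as the smallest adjusted p. The unadjusted p was under 0.05 for 332 genes, 2.99% of those tested, and for 521 without WT replicate 3. Among the members 1 of 10 was past that mark, Ing5, through which the family was chosen, so nothing is read from the count. Groups that did not overlap were found for 2 of the 10, Ing5 as lower and Kat6b as higher. They were found for 5.79% of all genes tested, 2.97% as lower and 2.81% as higher. Ing5 enters this count through the difference that chose the family, so nothing is read from the count either.

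**Figure D3:**
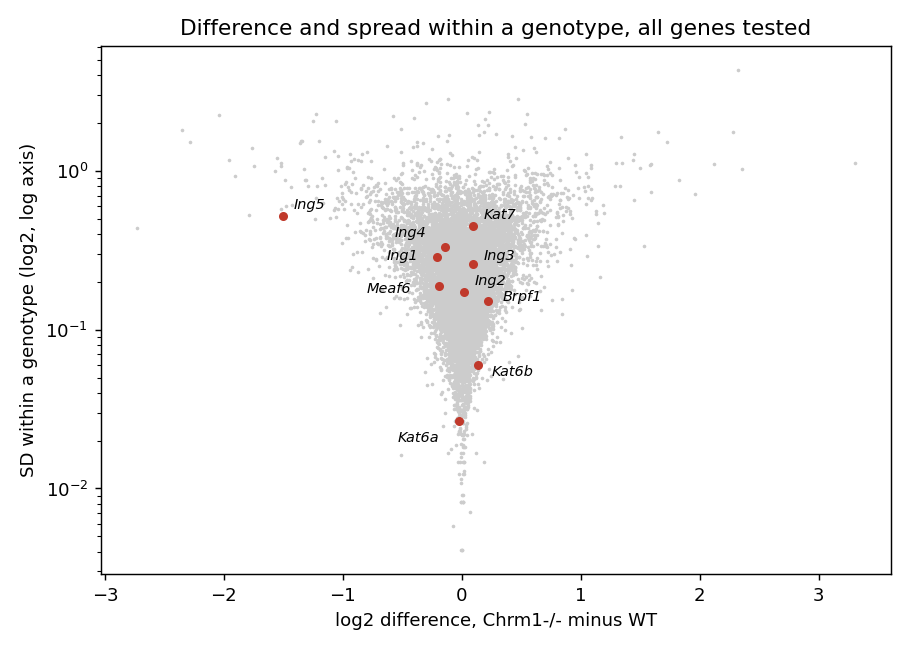
Log2 difference, Chrm1-/- minus WT (horizontal axis), against the SD within a genotype (vertical log axis) for the 11094 genes tested (grey) and the 10 members (red). Kat6a and Kat6b sit at the narrow end of the spread, Kat7 and Ing5 at the wide end.

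The members differed in how steady they were between arrays. The range over the 6 arrays was under 0.5 for Ing2, Kat6a and Kat6b, and 5 of the 10 members had a range above the median of all genes tested, 0.60. The spread within a genotype was larger for Kat7 than for 85.7% of the genes tested and for Ing4 than for 72.1%, against 4.06% for Kat6b and 0.604% for Kat6a.

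The genes whose pattern over the 6 arrays lay nearest to that of Ing5 were Clic4, Brk1, Cryba1, H2bc21 and Ift43. Likeness was the root mean square distance between log2 values, each less its own mean over the 6 arrays, and it ran from 0.39 for Clic4 to 0.43 for Ift43. Since Ing5 is lower in Chrm1-/-, genes near to it are lower there by the choice, and no test is given. Clic4, an intracellular chloride channel protein, read 9.50, 9.62 and 9.87 on the Chrm1-/- arrays and 10.96, 10.24 and 10.31 on the WT arrays. Brk1, which serves actin assembly in the WAVE complex, read 9.44, 9.49 and 10.04 on the Chrm1-/- arrays and 11.12, 10.04 and 10.07 on the WT arrays. Like Ing5, Clic4 and Brk1 had their highest value on WT replicate 1 and their highest Chrm1-/- value on replicate 3. Since likeness was taken over all 6 arrays, such shared peaks are favoured by the choice as well. Cryba1, a lens crystallin gene, averaged 6.93 ± 0.27 in Chrm1-/- and 7.67 ± 0.45 in WT (SD, n = 3 each). The histone H2B gene H2bc21 averaged 6.58 ± 0.62 in Chrm1-/- and 7.53 ± 0.94 in WT (SD, n = 3 each). Ift43, of intraflagellar transport, averaged 7.28 ± 0.31 in Chrm1-/- and 8.24 ± 0.57 in WT (SD, n = 3 each). Of the other members, Meaf6 lay nearest to Ing5, at a distance of 0.72, and Brpf1 farthest, at 0.98.

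**Figure D4:**
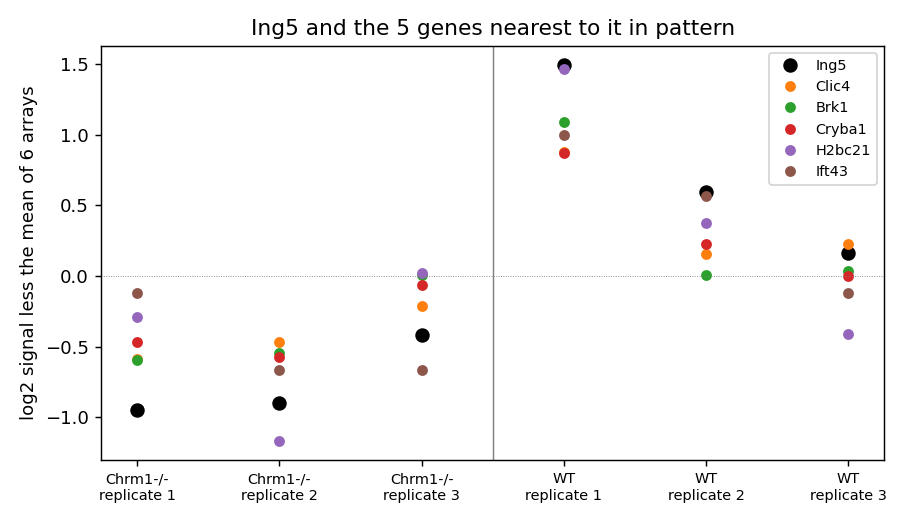
Log2 signal less the mean of the 6 arrays (vertical axis) for Ing5 (black) and the 5 genes nearest to it in pattern, on the Chrm1-/- arrays (left) and the WT arrays (right). All 6 genes peak on WT replicate 1, which the choice by likeness to Ing5 favours.

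The relatives of the members and their partners in the complexes gave no gene past the tests. Of 60 partner genes tested in 6 lists, 27 were higher and 33 lower in Chrm1-/-, with a median difference of -0.02. In limma 0 of the 60 had an unadjusted p under 0.05, where 2.99% of all genes tested did, and 1 had groups that did not overlap, where 5.79% of all genes tested did. Without Chrm1-/- replicate 1 the unadjusted p in limma was under 0.05 for 2 partners, Kat2b and Sap30l. In that fit it was under 0.05 for 463 of all 11094 genes tested, so nothing is read from the 2. Kat8, the MYST enzyme of the MSL and NSL complexes, read 8.87, 8.05 and 9.06 on the Chrm1-/- arrays and 9.83, 9.30 and 8.54 on the WT arrays. The Kat8 difference of -0.56 ± 0.40 (SE) was the lowest among the MYST and scaffold relatives, with overlapping groups and an interval from -1.54 to 0.41. Kat5, the enzyme of NuA4/TIP60, read 9.0, 8.32 and 9.25 on the Chrm1-/- arrays and 9.14, 8.79 and 9.88 on the WT arrays, a difference of -0.41 ± 0.35 (SE). The spread within a genotype was larger for Kat8 than for 93.0% of the genes tested and for Kat5 than for 90.0%, wider than for Kat7.

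The scaffold relatives were steadier. Brd1 and Brpf3, which can take the place of Brpf1, differed by -0.02 ± 0.15 (SE) and 0.16 ± 0.13 (SE). Of the Jade proteins, which hold Kat7 in its other form of complex, Jade1 differed by 0.02 ± 0.10 (SE), Jade2 by -0.16 ± 0.22 (SE) and Jade3 by 0.20 ± 0.21 (SE). All 6 Jade1 values lay within 0.09.

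The remaining lists held the partners of Ing3, of Ing1 and Ing2 and of Kat8, other acetyltransferases and blood cell genes linked to the enzymes. Of 12 NuA4/TIP60 partners of Ing3, 8 were higher and 4 lower, with a median difference of 0.06. Of 14 Sin3 deacetylase partners of Ing1 and Ing2, 4 were higher and 10 lower, with a median of -0.02. Of 10 MSL and NSL partners of Kat8, 6 were higher and 4 lower, with a median of 0.08. Phf20, a methyl-lysine reader of the NSL complex, was the 1 partner whose groups did not overlap, at 9.02, 9.35 and 8.92 in Chrm1-/- and 8.86, 8.78 and 8.91 in WT, a gap of 0.01 and a difference of 0.25 ± 0.14 (SE). Of 9 acetyltransferases of other families, 4 were higher and 5 lower, with a median of -0.01. Of 8 blood cell genes linked to Kat6a, Kat7 or Brpf1, such as Hoxa9 and Meis1, 2 were higher and 6 lower, with a median of -0.11. These medians stand beside 0 over all genes tested and leaned on single arrays. On leaving out 1 array the median of the MSL and NSL partners ran from -0.08 without WT replicate 1 to 0.17 without Chrm1-/- replicate 1. That of the NuA4/TIP60 partners ran from -0.01 without Chrm1-/- replicate 1 to 0.07 without Chrm1-/- replicate 2. That of the Sin3 partners ran from -0.10 without Chrm1-/- replicate 3 to -0.01 without Chrm1-/- replicate 1. That of the linked blood cell genes ran from -0.16 without Chrm1-/- replicate 3 to -0.01 without WT replicate 1. The MYST and scaffold relatives, with a median of -0.02, ran from -0.12 without WT replicate 1 to 0.04 without WT replicate 3, and the other acetyltransferases from -0.03 without Chrm1-/- replicate 2 to 0.05 without WT replicate 3. With all 6 arrays, 0 members of any of the 6 lists passed in limma, adjusted or unadjusted.

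**Figure D5:**
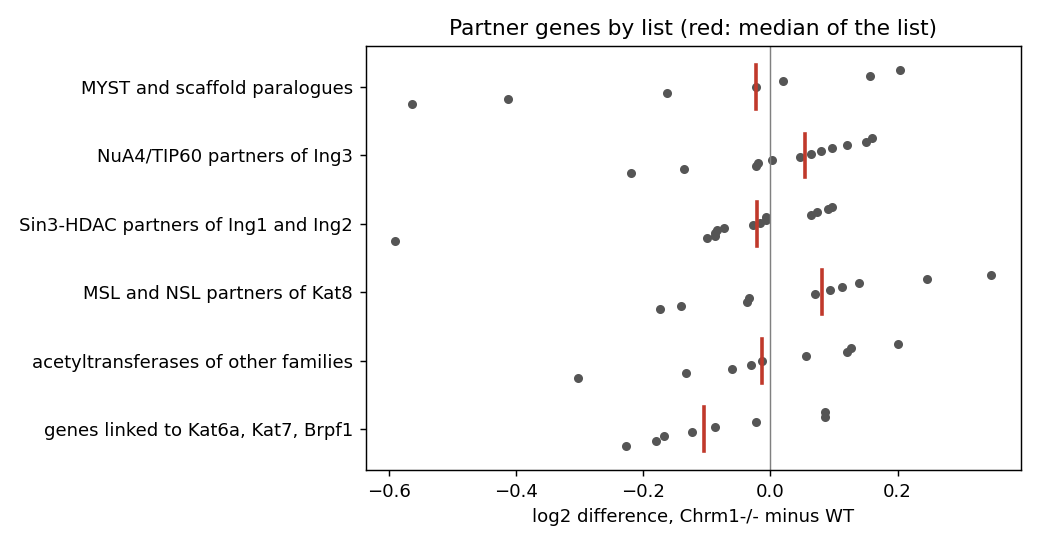
Log2 difference, Chrm1-/- minus WT (horizontal axis), of each tested partner gene (points) in the 6 lists, with the median of the list as a red bar. The medians lie between -0.11 and 0.08.

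Markers of other blood cells were read beside Ing5, since the sort could hold traces of them. Of 5 tested granulocyte precursor markers all 5 had a lower mean in Chrm1-/-, where 5463 of all 11094 genes tested did. The groups overlapped for each of the 5, and 0 had an unadjusted p under 0.05 in limma. The mean of the 6 granulocyte precursor markers on the array was 8.28, 7.85 and 8.06 on the Chrm1-/- arrays and 8.22, 8.28 and 8.42 on the WT arrays. The mean of 6 macrophage and monocyte markers was 7.22, 6.75 and 7.01 on the Chrm1-/- arrays and 6.83, 7.11 and 7.30 on the WT arrays. Of the 3 of them tested, Ly86 and Fcgr3 had higher means in Chrm1-/-, with differences of 0.51 and 0.07 and overlapping groups. Cd68 was lower with groups that did not overlap, as were 2.97% of all genes tested, at 8.47, 8.16 and 8.19 in Chrm1-/- and 8.79, 9.0 and 10.25 in WT. Cd68 was highest on WT replicate 3, where Ing5 was lowest among the WT arrays. Of 4 erythroid markers 3 were higher and 1 lower, and of 2 tested lymphoid markers 1 was higher and 1 lower. Of the 8 stem cell markers 3 were higher, 4 lower and 1 equal, with a median difference of -0.01 and Fgd5, a stem cell marker gene, as the highest at 0.38. Procr, a surface receptor used to purify HSCs, read 8.16, 8.19 and 8.24 in Chrm1-/- and 8.40, 8.45 and 8.50 in WT. It was the 1 of the 8 whose groups did not overlap, and 2.97% of all genes tested were likewise lower without overlap. The part of these cell types in the Ing5 difference was not tested.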

How the data were processed

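Per the series design text, RNA of sorted HSCs was amplified with a NuGEN kit and hybridised to Affymetrix arrays, and the authors processed the chips in the Affymetrix analysis software; neither the version nor the summarization or normalization step is stated there. The range of the deposited values, 3.02 to 13.67, is that of log2 signals, and they were used as such, although the table names no scale. Of 41345 rows, 23521 had 1 gene symbol in the platform annotation; for genes with over 1 row the row with the highest mean was kept. The symbols of all 10 members equalled those of a RefSeq gene table on GRCm38.p6, used for names and promoters; no build is named for the array annotation. Genes whose mean reached 6.77, the median gene, were tested as Chrm1-/- minus WT in limma 3.58.1 (lmFit and eBayes) under R 4.3.3, two-sided, and p-values were adjusted by Benjamini-Hochberg over all 11094 genes; the fit was tested on simulated data. Standard errors and 95% intervals are limma's. Tables were joined and plots drawn in Python 3.11.15 (matplotlib 3.10.9, numpy 2.4.6, pandas 2.3.3).

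The members, the 6 partner lists, the 5 marker lists and the tests were chosen with earlier results of these data known. The text names the 10 members, the 7 relatives Kat5, Kat8, Brd1, Brpf3, Jade1, Jade2 and Jade3, partners with an unadjusted p under 0.05 or groups that do not overlap (at most 4 per list), and the 5 genes nearest to Ing5 in pattern, leaving out predicted genes, unnamed clones and small RNAs. Nothing in the labels ties a replicate to a mouse of its own, so p-values and errors cover the spread between these arrays alone, which may be technical. No 2 arrays held the same values throughout. Alternatives covered the filter on dim genes, median centring and quantile normalization, averaging the rows of a gene, the moderation, weights per array, a block for the replicate number and leaving out each array.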

Additional observations from a re-analysis of the deposited data

How the results depend on the processing

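The Ing5 difference of -1.50 kept its direction under all 15 alternatives, most of which could not turn it. The filters, the moderation, the block for the replicate number and the averaging of rows leave the mean difference of Ing5 unchanged. Leaving out 1 array or weighting the arrays cannot turn its sign, since every Chrm1-/- array lay below every WT array. The difference ran from -1.80 to -1.13 on leaving out 1 array and from -1.54 to -1.50 otherwise. For all 10 members each alternative moved the difference by less than the SD within a genotype. Leaving out 1 of 3 arrays cannot move a difference by as much as that SD, so nothing is read from this for those fits. Ing2 and Brpf1 had no value with the filter at the 75th percentile, which they did not reach. Among members with small differences, single arrays turned the sign of Ing1, Ing2, Ing3, Ing4 and Kat7, as given beside their values. Without WT replicate 3, 1 of the 9 other members, Meaf6, had an unadjusted p under 0.05 in limma; over the leave-one-out fits that number ran from 0 to 1. Of the partner genes, 0 to 2 had one, the 2 being Kat2b and Sap30l without Chrm1-/- replicate 1, named after their values were seen. In that fit 463 of all 11094 genes tested had an unadjusted p under 0.05 in limma. The median of the MSL and NSL partners was -0.04 with array weights, and that of the MYST and scaffold relatives -0.20 with the filter at the 75th percentile. The number of genes with an unadjusted p under 0.05 was 567 with no filter on dim genes, 169 with the filter at the 75th percentile, and 337 to 521 on leaving out 1 array, the highest without WT replicate 3. The number past the adjusted threshold was 1 with no moderation, Apmap, and ran from 0 to 1 on leaving out 1 array (Snord49a without Chrm1-/- replicate 3, Gdpd3 without WT replicate 1). Fewer or more genes entered the fit with the other filters; the cause of the other shifts in these counts was not tested. Apmap, Snord49a and Gdpd3 lie outside the naming rule and were named after their values were seen. With the replicate number as a block the Ing5 difference stays at -1.50 by design, since each genotype holds each number. Deviations of same-numbered arrays from their group means had correlations of -0.03, 0.01 and -0.01, so no shared deviation was seen over the genes tested. These correlations cannot show whether same-numbered arrays were collected or handled together. The precision is that of 3 arrays per genotype, and dim probes carry little signal over background.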

Other observations

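A few partner genes swung widely between arrays of the same genotype, and they were picked after their values were seen. Brms1l, of the Sin3 deacetylase complex, read 7.22, 9.45 and 9.57 on the Chrm1-/- arrays and 9.52, 9.62 and 7.40 on the WT arrays, so a single array of each genotype lay far below the other two. Its spread within a genotype was larger than that of 99.5% of the genes tested, while its genotype difference was -0.10 ± 0.85 (SE). Kansl1, a scaffold of the NSL complex, read 10.57, 10.52 and 9.80 on the Chrm1-/- arrays and 9.94, 11.19 and 8.72 on the WT arrays. By contrast Hat1, an acetyltransferase of newly made histones, lay within 0.08 over all 6 arrays. The spread within a genotype was below that of Hat1 for 0.802% of the genes tested.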
